A study of Homo sapiens with 6 samples.

Results

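The genes described here code for the vascular endothelial growth factors, their receptors, TIE1 and ANGPT1 of the angiopoietin-TIE system, and the adrenomedullins. They are 10 genes (VEGFA, VEGFB, VEGFC, PGF, FLT1, KDR, TIE1, ANGPT1, ADM and ADM2), picked out by name among the 60660 genes counted, by a rule that sets no threshold on a measured value. The list was, however, made with earlier results of these data known. The cells were of 12Z, an immortalized epithelial line from endometriosis, a disorder in which tissue like the lining of the uterus grows outside it, and their poly-A RNA was sequenced. The 3 control libraries came from cells given a non-targeting siRNA and the 3 knockdown libraries from cells given siRNA LINC01133a at 10 nM, which is directed against the long noncoding RNA LINC01133. All cells were harvested 72 h after transfection. The comparison asks how these vascular genes respond to loss of LINC01133 in an epithelial cell. It rests on 1 cell line and 1 siRNA against LINC01133. The study describes the libraries of a group as biological replicates, and the p-values measure the spread between them.

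VEGFA, VEGFB, VEGFC and PGF (placental growth factor) are secreted dimers that bind tyrosine kinase receptors, chiefly on the cells lining blood and lymph vessels. KDR carries most of the signal that makes these cells divide, move and form new vessels, FLT1 binds VEGFA, VEGFB and PGF, and neuropilins serve as co-receptors. Angiopoietins act through the receptor TEK, which pairs with TIE1, and steady or loosen the vessel wall. Adrenomedullin and its relative ADM2 are peptides that widen vessels through CALCRL, a receptor that needs a RAMP partner protein. Lesions of endometriosis are known for dense vessels, and their epithelium is a known source of VEGFA.

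The libraries held 27742562 to 37551194 counts on genes. In each, 93.861% to 94.109% of the stranded counts lay on the strand opposite to read 1, and this column was used. Normalized counts, meaning counts divided by relative effective library size, are given as mean ± SD with n = 3 per group. LINC01133 (ENSG00000224259.7, chr1:159958035-159984750, + strand) read 813, 818 and 837 normalized counts in control and 129.7, 131 and 138 in knockdown libraries, so the remaining level was 16.1% of control (log2 fold change -2.63, SE 0.070). Control replicate 2 stood furthest from the others of its group, with a chi-square per gene of 11.8 and 12.8 against its replicates, while the other pairs of like libraries gave 2.21 to 3.73. Of 14 endothelial markers, 8 were under 10 counts in every library, PECAM1, CLDN5 and ERG among them. All 14 summed to 16.0 to 18.8 TPM in control and 20.1 to 22.5 TPM in knockdown libraries. TPM are counts per exon length, scaled to the same sum in every library. Of this sum, EGFL7 alone held a mean of 14.1 TPM in control and 15.4 TPM in knockdown cells, and it was not called. Among the 6 blood cell markers none was called, and PTPRC had 23.8 ± 4.24 normalized counts in control and 20.4 ± 5.33 in knockdown cells. Of the 9 epithelial markers, EPCAM was low, with 13.6 ± 4.33 and 16.9 ± 5.19 normalized counts, whereas KRT8, a keratin of simple epithelia, had 104551 ± 2608 and 67728.5 ± 2225. CLDN4 was also low, at 14.8 ± 3.39 and 8.71 ± 3.77. The 10 pericyte and stromal markers were as uneven. COL1A1 had 87700 ± 7163 and 82069 ± 2201 normalized counts, and DES 9.01 ± 2.39 and 2.82 ± 1.24, both named after their values were seen. The keratins thus stood beside strong stromal RNA in both groups.

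Knockdown cells had less PGF, TIE1 and KDR mRNA and more ADM2 mRNA than control cells. PGF stood at 39.3%, TIE1 at 33.4% and KDR at 62.5% of control, and ADM2 at 3.04 times control. A gene was called where its fold change was over 1.5 in either direction and its adjusted p under 0.05, from edgeR's quasi-likelihood test, with p-values adjusted by the Benjamini-Hochberg method across the 15155 genes tested. Of the 10 members, 9 had enough reads to be tested and 4 were called, against 11.7% of all genes tested. Of these, 3 were lower, against 6.43% of all genes, and 1 was higher, against 5.3%. With the adjusted p alone, 7 of the 9 tested members passed, against 48.3% of all genes. The values of control and knockdown libraries did not overlap for 6 of the 9, near the 57.3% of all genes tested. Because the list was made with earlier results of these data known, these counts describe the members and are no test against all genes. In these bulk samples, fewer cells that express a gene and less of its RNA per cell cannot be told apart.

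**Figure D1:**
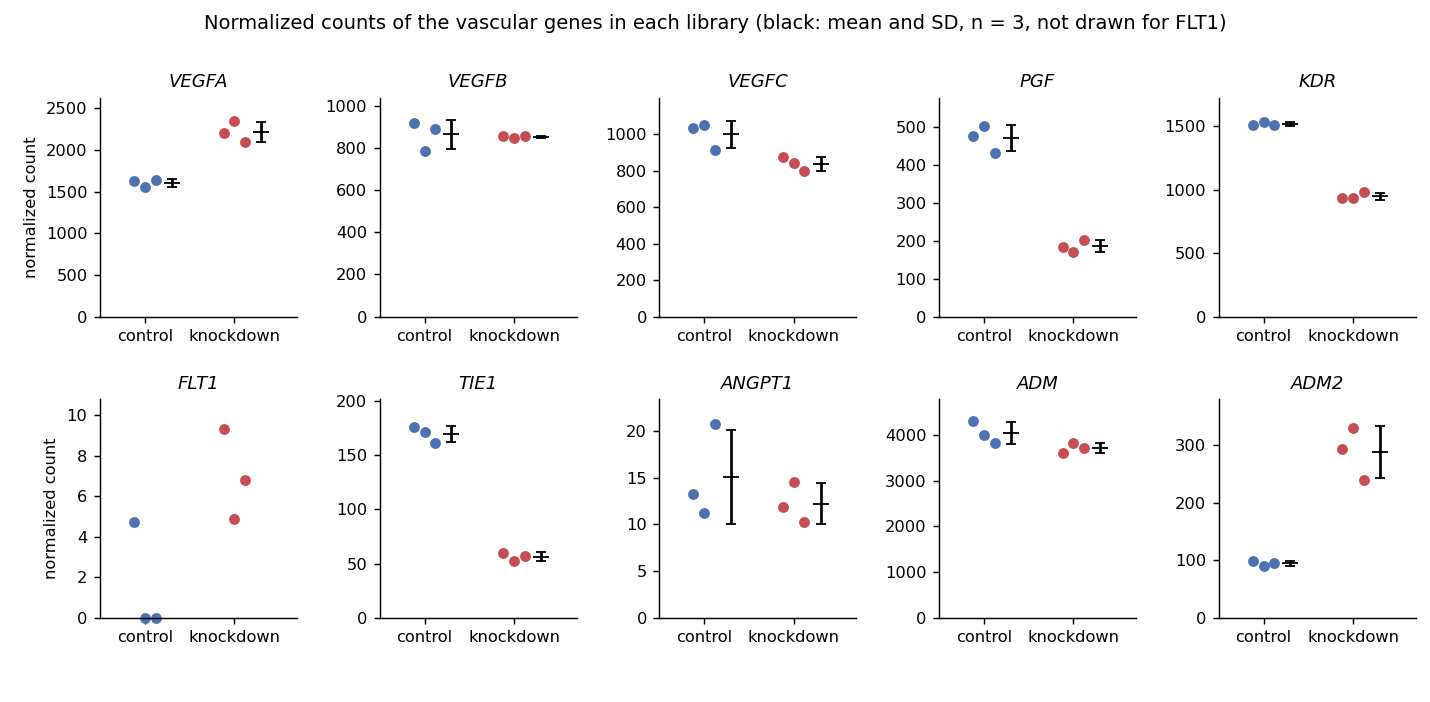
Normalized counts (vertical axes, each starting at 0) of the 10 genes in 3 control (blue) and 3 knockdown (red) libraries, with the mean and SD in black, which are not drawn for FLT1. PGF, KDR, TIE1 and VEGFC lay lower and ADM2 and VEGFA higher in every knockdown library than in any control library, while VEGFB, ANGPT1 and ADM overlapped.

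Among the VEGF-family ligands, PGF (ENSG00000119630.14, chr14:74941834-74955626, - strand), which binds FLT1 and neuropilins but not KDR, changed most. Its normalized counts were 478, 504 and 433 in control and 185, 169.9 and 203 in knockdown libraries. The groups lay far apart, with the highest knockdown library below the lowest control library. PGF fell by 1.35 on the log2 scale (SE 0.090, 95% interval -1.54 to -1.15, edgeR adjusted p = 8.22e-08), from 472 ± 35.6 to 186 ± 16.6 normalized counts. Its log2 fold change ranged from -1.40 to -1.28 over the 14 alternative settings that kept the fold cutoff, with the call in all of them. Counts of alternatives given for other genes are over these 14. Its promoter is shown because PGF had the largest change of the VEGF-family ligands. The 250 bases before its start site are taken from RefSeq (GRCh38.p14, chr14:74955598-74955847, - strand, 5′ to 3′), with matches to the motifs named further on in capitals.
PGF promoter: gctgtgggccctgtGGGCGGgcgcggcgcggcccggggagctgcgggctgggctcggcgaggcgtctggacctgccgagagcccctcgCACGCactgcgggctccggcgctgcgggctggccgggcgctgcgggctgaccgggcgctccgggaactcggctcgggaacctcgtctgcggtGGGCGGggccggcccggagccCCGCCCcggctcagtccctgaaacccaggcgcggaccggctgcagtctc

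VEGFA (ENSG00000112715.25, chr6:43770184-43786487, + strand), the ligand of FLT1 and KDR that drives new vessel growth when oxygen is short, moved the other way by less than the fold cutoff. Its normalized counts were 1630.1, 1549 and 1638 in control and 2205, 2341 and 2097 in knockdown libraries. Every knockdown library was above every control library. The means were 1606 ± 49.5 and 2214 ± 123, which put knockdown at 137.9% of control (log2 fold change 0.46, SE 0.047, 95% interval 0.361 to 0.566, edgeR adjusted p = 3.90e-06). It was called in 0 of the 14 alternatives with the fold cutoff, at a log2 fold change of 0.42 to 0.53, and passed where the cutoff was left out.

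VEGFC (ENSG00000150630.4, chr4:176683538-176792922, - strand), best known for the growth of lymph vessels, had 1037, 1051 and 914 normalized counts in control and 874, 843 and 799.8 in knockdown libraries. The groups did not overlap, but the lowest control and the highest knockdown library lay close together. The log2 fold change was -0.25 (SE 0.061, 95% interval -0.384 to -0.119, edgeR adjusted p = 0.00409), under the fold cutoff. VEGFB (ENSG00000173511.10, chr11:64234584-64239264, + strand), which binds FLT1 and is linked to fatty acid handling, had 918, 787 and 894 normalized counts in control and 858, 849 and 858 in knockdown libraries. All 3 knockdown values of VEGFB lay within the control range. The log2 fold change was -0.02 (SE 0.060, 95% interval -0.152 to 0.107, edgeR adjusted p = 0.781), and its sign turned positive in 3 of 14 alternatives, one of them library size alone.

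Per length of all exons, the ligands together summed to 136 ± 4.11 TPM in control and 126 ± 1.05 TPM in knockdown cells. Within that sum, VEGFA made up 11% ± 0.419 in control and 16.3% ± 0.753 in knockdown cells, and PGF 8.01% ± 0.624 and 3.41% ± 0.355. VEGFB went from 43.3% ± 2.89 to 46.2% ± 0.94 and VEGFC from 37.7% ± 2.57 to 34.1% ± 0.915. The mix of ligand mRNAs thus held more VEGFA and less PGF in each of the 3 knockdown libraries than in any control library. The sum and the shares depend on the length used, since the union of VEGFA exons spans 14431 bases and its canonical transcript 3609. With canonical transcripts, the sum was 132 ± 3.22 TPM in control and 128 ± 1.55 TPM in knockdown cells. The groups then overlapped, with control replicate 3 at 128 TPM and knockdown replicate 2 at 129 TPM. On that scale the VEGFA share was 27.2% ± 1.01 and 39.2% ± 1.45, and the PGF share 16.5% ± 1.2 and 6.84% ± 0.756.

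KDR (ENSG00000128052.10, chr4:55078481-55125595, - strand), the main signalling receptor for VEGFA, was read in these epithelial cells at 1514, 1535 and 1509.9 normalized counts in control libraries. In knockdown libraries it read 934, 934 and 983. The spread within each group was small beside the gap between them. KDR fell by 0.68 on the log2 scale (SE 0.044, 95% interval -0.773 to -0.584, edgeR adjusted p = 5.63e-08), from 1519.7 ± 13.7 to 950.3 ± 27.9. The call held in 13 of 14 alternatives. In a test against a fold change of 1.5 itself rather than 0, edgeR gave an adjusted p of 0.138. Its promoter (RefSeq, GRCh38.p14, chr4:55125596-55125845, - strand) is shown because KDR was the VEGF receptor with reads enough to be tested.
KDR promoter: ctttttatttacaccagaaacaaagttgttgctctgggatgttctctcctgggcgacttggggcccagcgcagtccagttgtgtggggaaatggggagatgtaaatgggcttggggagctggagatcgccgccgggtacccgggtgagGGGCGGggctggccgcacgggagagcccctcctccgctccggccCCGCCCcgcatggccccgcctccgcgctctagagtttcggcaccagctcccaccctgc

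FLT1 (ENSG00000102755.12, chr13:28300346-28495145, - strand), the other VEGF receptor among the members, was close to absent. It had 5, 0 and 0 reads in control and 11, 5 and 6 in knockdown libraries, too few for the test. The control library with 5 reads matched the lowest knockdown library, so the groups touched in raw reads. When genes were not filtered on low counts, FLT1 had a log2 fold change of 1.98 (SE 0.71, 95% interval 0.584 to 3.37, edgeR adjusted p = 0.0236) and became the fifth member called. That fitted value depends on the small count added to the zeros and is no bound. The adjusted p and interval of that fit are not comparable with those of the main fit. For LINC01133 the edgeR adjusted p was 4.45e-193 without the filter and 3.45e-11 with it. A count of 0 allows up to 0.101 CPM (counts relative to library size) in control replicate 2 and 0.0944 in control replicate 3, counting error only. FLT4, the VEGFC receptor, was as low, with 7, 2 and 2 reads in control and 6, 6 and 3 in knockdown libraries, and VEGFD, another ligand, had 7 reads over the control and 4 over the knockdown libraries.

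Both neuropilins, which hold VEGF ligands for the kinase receptors, fell with KDR. NRP1 had 3814, 4225 and 3589 normalized counts in control and 2118, 2042 and 1909 in knockdown libraries. Its log2 fold change was -0.94 (SE 0.058, edgeR adjusted p = 4.23e-08), and it was called in all 14 alternatives. NRP2 went from 1065 ± 117 to 671 ± 11.7 normalized counts (log2 fold change -0.66, SE 0.070, edgeR adjusted p = 5.38e-06), and without control replicate 2 it dropped below the fold cutoff at -0.58. The list of 10 VEGF and PDGF genes beyond the members had 8 tested. Of these, 0 were called higher and 4 lower, against 5.3% and 6.43% of all genes. The median log2 fold change was -0.545 against 0.003 over all genes. Besides the neuropilins, the called genes were PDGFRA, the platelet-derived growth factor receptor of mesenchymal cells, at -1.52 (248.8 ± 45.9 to 86.9 ± 10.7, edgeR adjusted p = 2.85e-06), and PDGFD, a ligand of that family, at -0.59 (453 ± 7.35 to 302 ± 30.8, edgeR adjusted p = 4.51e-05). PDGFD fell below the fold cutoff under library size alone (-0.53) and without knockdown replicate 1 (-0.54) or 2 (-0.56). PDGFRA shares exon bases on its strand with another annotated gene and can be counted incompletely.

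**Figure D2:**
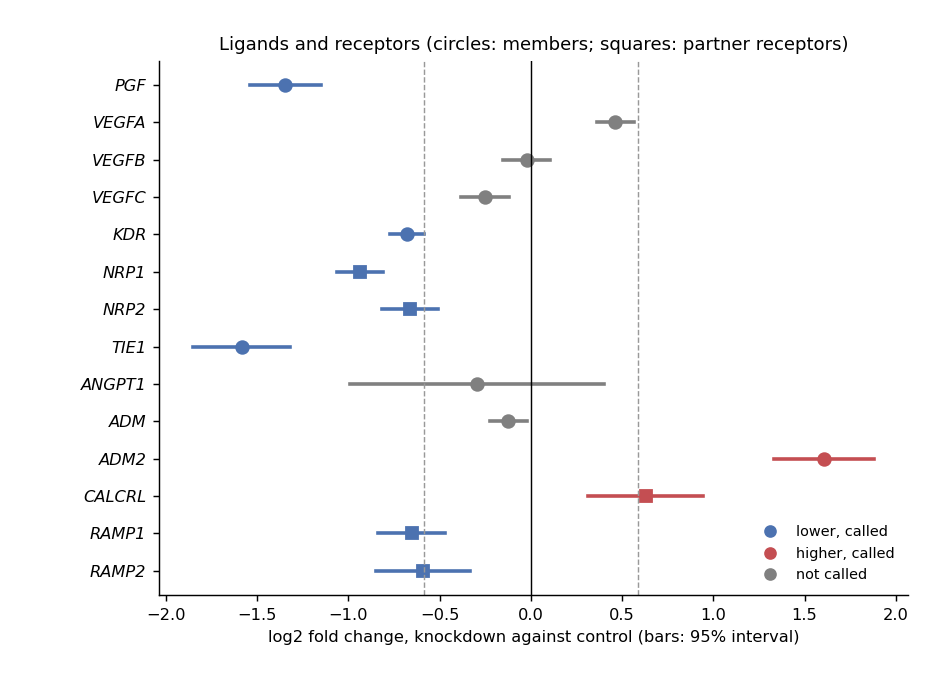
Log2 fold changes of knockdown against control (horizontal axis) with 95% intervals, for the 9 tested members (circles) and the partner receptors tested (squares), with dashed lines at the 1.5-fold cutoffs. PGF and TIE1 lie furthest left and ADM2 furthest right, and the intervals of VEGFB and ANGPT1 span 0.

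TIE1 (ENSG00000066056.14, chr1:43300982-43323108, + strand), a kinase receptor that modifies angiopoietin signals through TEK, fell to the lowest share of its control level among the members. Its normalized counts were 176, 171 and 162 in control and 60.2, 52.4 and 56.7 in knockdown libraries. No library came near the other group. TIE1 fell by 1.58 on the log2 scale (SE 0.123, 95% interval -1.85 to -1.32, edgeR adjusted p = 3.26e-07), from 169.7 ± 7.33 to 56.4 ± 3.88, and was called in all 14 alternatives, at -1.63 to -1.52. Its promoter (RefSeq, GRCh38.p14, chr1:43300732-43300981, + strand) is shown for contrast with those of PGF and KDR, since it holds no capitals.
TIE1 promoter: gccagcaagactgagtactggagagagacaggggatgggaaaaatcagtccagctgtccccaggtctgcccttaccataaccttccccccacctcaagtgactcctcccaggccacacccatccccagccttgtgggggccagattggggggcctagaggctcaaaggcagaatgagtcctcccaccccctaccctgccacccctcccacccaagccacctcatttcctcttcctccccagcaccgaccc

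ANGPT1 (ENSG00000154188.10, chr8:107249482-107498055, - strand), the ligand that activates TEK and steadies vessels, was barely read, with 14, 10 and 20 reads in control and 14, 15 and 9 in knockdown libraries. The groups overlapped. Its log2 fold change was -0.30 (SE 0.322, 95% interval -0.992 to 0.399, edgeR adjusted p = 0.474), an interval wide enough to hold a 1.5-fold change in the lower direction. TEK itself had 5, 2 and 5 reads in control and 3, 2 and 1 in knockdown libraries, and ANGPT2 had 0 in every library, which allows up to 0.0154 CPM over the 194269637 counts of all libraries. Of the 7 other angiopoietin-TIE genes listed, 4 were tested and 0 were called, against 11.7% of all genes. The most abundant of them were the integrin genes ITGB1, at a log2 fold change of 0.05 (edgeR adjusted p = 0.356), and ITGA5, at -0.01 (edgeR adjusted p = 0.909), a sign that turned positive under library size alone. The other tested genes, named after their values were seen, were PTPRB, a phosphatase that acts on TEK, at 0.43 (edgeR adjusted p = 0.000459), and SVEP1, a matrix ligand of TIE1, at -0.53 (edgeR adjusted p = 0.000681), each under the fold cutoff.

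ADM (ENSG00000148926.10, chr11:10305073-10307397, + strand), adrenomedullin, was the most abundant member in both groups. Its normalized counts were 4305, 4003 and 3816 in control and 3609, 3828 and 3707 in knockdown libraries. The groups overlapped, because knockdown replicate 2 lay above control replicate 3. Its log2 fold change of -0.12 (SE 0.046, 95% interval -0.223 to -0.0219, edgeR adjusted p = 0.044) was far under the fold cutoff. The adjusted p stayed under 0.05 in 7 of 14 alternatives and was 0.177 without control replicate 1, 0.189, 0.0583 and 0.108 without knockdown replicates 1, 2 and 3, and 0.308 with library size alone.

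ADM2 (ENSG00000128165.9, chr22:50481543-50486440, + strand), also known as intermedin, was the member called higher. Its normalized counts were 99.4, 90.1 and 95.3 in control and 294, 330.2 and 240.5 in knockdown libraries. The lowest knockdown library was well above the highest control library. ADM2 changed by 1.60 on the log2 scale (SE 0.128, 95% interval 1.33 to 1.88, edgeR adjusted p = 4.24e-07), from 94.95 ± 4.65 to 288 ± 45.1, and was called in all 14 alternatives, at 1.501 to 1.71. Exons of ADM2 overlap those of SBF1 on the opposite strand, a gene with 3715 to 5653 counts per library, and the strand of the reads keeps them apart. On the strand of read 1, ADM2 had 2 counts over the control and 4 over the knockdown libraries. As a share of both adrenomedullins per length of all exons, ADM2 made up 1.26% ± 0.0685 in control and 4.03% ± 0.562 in knockdown cells. Its promoter (RefSeq, GRCh38.p14, chr22:50481293-50481542, + strand) is shown because it was the member called higher.
ADM2 promoter: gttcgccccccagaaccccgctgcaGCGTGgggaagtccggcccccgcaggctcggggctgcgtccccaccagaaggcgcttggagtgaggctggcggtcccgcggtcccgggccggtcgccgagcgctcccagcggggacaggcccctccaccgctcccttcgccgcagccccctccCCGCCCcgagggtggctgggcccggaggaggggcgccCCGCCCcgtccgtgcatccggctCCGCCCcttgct

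The receptor parts for adrenomedullins did not move in 1 direction. CALCRL, the receptor that binds these peptides, rose from 61.5, 55.2 and 58.0 to 92.4, 79.6 and 99.8 normalized counts (log2 fold change 0.63, SE 0.146, edgeR adjusted p = 0.00303). Without knockdown replicate 3 the value was 0.57, below the fold cutoff. RAMP1, which with CALCRL forms the receptor for calcitonin gene-related peptide, fell from 455 ± 48.3 to 289.6 ± 4.44 (log2 fold change -0.65, SE 0.086, edgeR adjusted p = 3.35e-05). RAMP2, which turns CALCRL into an adrenomedullin receptor, went from 185.0 ± 23.0 to 122.7 ± 9.14 (log2 fold change -0.59, SE 0.12, edgeR adjusted p = 0.00114), a call lost under library size alone (-0.53), with a replicate block (-0.58) and without control replicate 3 (-0.49) or knockdown replicate 2 (-0.53). RAMP3, the other partner for adrenomedullins, had 0 reads in every library, and the scavenger receptor ACKR3 had 3 reads in knockdown replicate 2 and 0 elsewhere. Of the 11 genes on this list, 5 were tested, 2 called higher and 2 lower, against 5.3% and 6.43% of all genes. The other gene called was ADM5, an adrenomedullin-like gene, with 18.1 ± 4.24 and 33.8 ± 9.01 normalized counts (log2 fold change 0.91, SE 0.27, edgeR adjusted p = 0.013), a call lost with DESeq2 (adjusted p = 0.0566), without control replicate 3 (edgeR adjusted p = 0.0583) and without knockdown replicate 1 (edgeR adjusted p = 0.0916).

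Per length of all exons, the control levels ran in the order ADM (232 ± 13.7 TPM), VEGFB (58.8 ± 3.68), VEGFC (51.2 ± 4.4), KDR (32.0 ± 0.885), VEGFA (14.9 ± 0.198), PGF (10.9 ± 0.978), TIE1 (3.38 ± 0.163), ADM2 (2.96 ± 0.0955) and ANGPT1 (0.282 ± 0.0906). Only the ranges of VEGFB and VEGFC overlapped between neighbours in this order. In knockdown cells VEGFA, at 20.5 ± 1.07 TPM, stood beside KDR, at 20.1 ± 0.778, with overlapping ranges. ADM2 moved past PGF and TIE1 to 9.0 ± 1.36 TPM, whereas PGF was at 4.29 ± 0.411 and TIE1 at 1.13 ± 0.0728. The order in the middle depended on the length used. With canonical transcripts, VEGFA (35.7 TPM in control cells) lay between VEGFB (38.5) and VEGFC (35.6), all with overlapping ranges, and PGF (21.8) beside KDR (20.9). ADM at the head and ANGPT1 and FLT1 at the foot kept their places on both scales and in both groups.

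**Figure D3:**
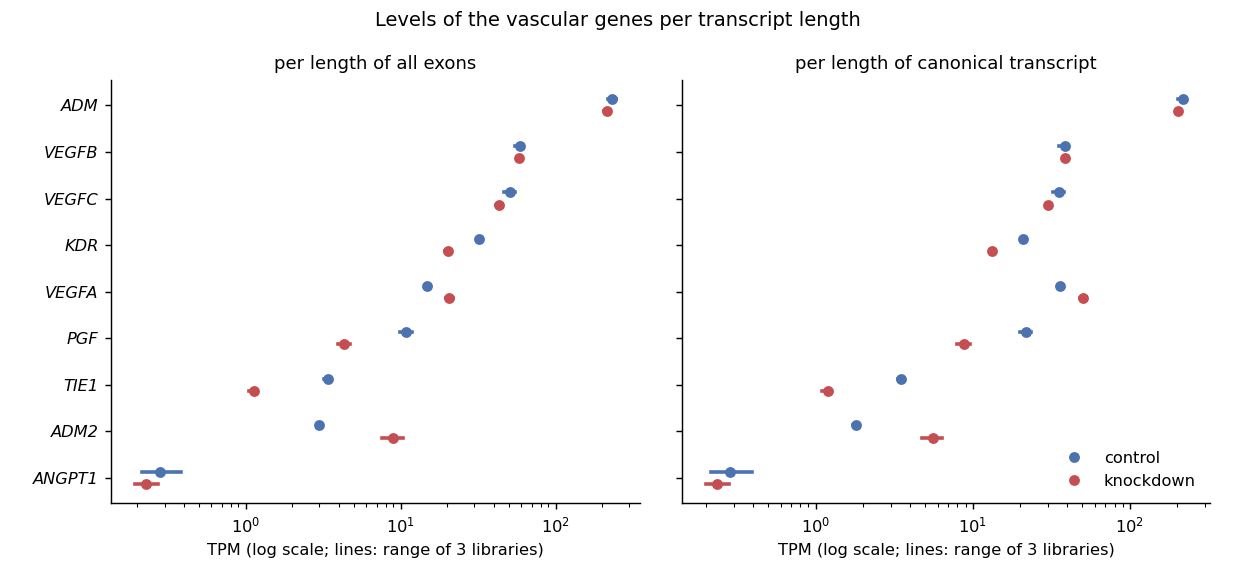
Levels in TPM (log axis) of 9 members in control (blue) and knockdown (red) cells, as means with the range of 3 libraries, per length of all exons (left) and of the canonical transcript (right). ADM lies highest and ANGPT1 lowest on both scales, VEGFA shifts by the length used, and ADM2 lies above TIE1 and PGF in knockdown cells on the left and above TIE1 but below PGF on the right.

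RefSeq promoter windows of 250 bases were found for 8 of the 10 members, not for VEGFA and ANGPT1. They were searched on both strands for the GC box GGGCGG, the hypoxia response core ACGTG or GCGTG, the TATA box TATAAA, and TGATGNAA, a word of ATF4 with C/EBP. The promoter of PGF held 3 GC boxes, KDR 2, ADM2 3 and TIE1 0, while 42.6% of 35116 promoter windows held at least 1. Among the members not called, VEGFB held 6, VEGFC 2, FLT1 3 and ADM 1. The hypoxia core was found once each in PGF and ADM2 and not in KDR or TIE1, and 43.2% of all windows held it. VEGFB, VEGFC, FLT1 and ADM, which were not called, each held 1 as well. TATAAA occurred in ADM and FLT1 only among the members (10.7% of all windows), and TGATGNAA in none (3.14%). The G and C content was 80.0% for PGF, 78.8% for ADM2, 65.2% for KDR and 61.6% for TIE1, beside a median of 58.0% over all windows. The called members had no motif of this search in common, and the genes called lower ranged from 0 to 3 GC boxes. PGF has another RefSeq start site further upstream, whose window, not shown, held 2 GC boxes and no hypoxia core.

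The siRNA is shown because short RNAs can also act on transcripts that match bases 2 to 8 of a strand, printed in capitals. The strands, from the study's list of oligonucleotides and without their overhangs, and the 3′ UTR sites in VEGFB, FLT1 and ADM are given 5′ to 3′, the latter from GENCODE v44 canonical transcripts with the matching 7 bases in capitals.
LINC01133a guide: uCCAUUCUcagguaacuuc
LINC01133a passenger: gAAGUUACcugagaaugga
VEGFB site: ctcaggggAGAATGGagtactgt
FLT1 site: tcagtcaaAGAATGGttccatct
ADM site: ttttttttGTAACTTcaaatata

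The 3′ UTRs of the 4 called members, PGF, KDR, TIE1 and ADM2, held no match to AGAATGG, the word paired with the guide seed, nor to GTAACTT, the word paired with the passenger seed. VEGFA and VEGFC held none either. VEGFB, whose level overlapped between the groups, held AGAATGG at base 294 of 931, followed by the A that extends it to 8 bases. FLT1 held the word at base 2195 of 2821. The passenger word occurred in ADM, at base 484 of 756, and in ANGPT1. Over 12538 tested genes with an annotated 3′ UTR, 17.1% held the guide word, 5.77% its 8-base form and 13.6% the passenger word.

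Genes around this system were taken from lists of known function. Of the 16 other secreted angiogenic factors, 14 were tested, 1 was called higher and 3 lower, against 5.3% and 6.43% of all genes. TGFB2, a transforming growth factor, rose from 1082 ± 118 to 2919 ± 286 normalized counts (log2 fold change 1.44, edgeR adjusted p = 1.37e-08). CXCL12, a chemokine that draws CXCR4-bearing cells, fell by 1.92 (384 ± 24.3 to 103 ± 22.6), APLN, the peptide apelin made by sprouting vessels, by 1.42 (1244 ± 68.4 to 465 ± 27.4), and CXCL8, a chemokine for neutrophils, by 0.96 (115 ± 34.8 to 59.8 ± 14.6), with an edgeR adjusted p of 0.00346 for CXCL8 and smaller values for the others. The change of CXCL8 did not pass the test against a fold change of 1.5 (edgeR adjusted p = 0.309). TGFB2 shares exon bases on its strand with TGFB2-OT1. Of 11 angiogenesis inhibitors, 10 were tested and 1 was called in each direction, against 5.3% higher and 6.43% lower of all genes. SPRY2, an inhibitor of receptor kinase signalling, was at 0.63, and the call was lost without control replicate 2 (0.58) and in the test against a fold change of 1.5. SEMA3F, a secreted neuropilin ligand, was at -0.64 and called in 9 of 14 alternatives, the call being lost with library size alone (-0.58), in the test against a fold change of 1.5, and without control replicate 1 (-0.51) or knockdown replicate 1 (-0.58) or 2 (-0.57).

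VEGFA, ADM, CA9 and others are known targets of the hypoxia factors HIF1A and EPAS1. Of the 22 hypoxia response genes, all tested and none a member, 1 was called higher and 8 lower, against 5.3% and 6.43% of all genes. Their median log2 fold change was -0.33 against 0.003 over all genes. CA12 and CA9, carbonic anhydrases that set pH, fell by 1.57 (2436 ± 33.9 to 819.5 ± 13.8) and 1.49 (116 ± 6.07 to 41.0 ± 3.69). PFKFB4, a regulator of glycolysis, fell by 1.09 and EGLN3, a hydroxylase that marks HIF proteins, by 1.04, and of these 4 genes EGLN3 had the largest edgeR adjusted p, 9.71e-06. PFKFB4 shares exon bases on its strand with UCN2. The summed level of the list was 2560 to 2810 TPM in control and 2040 to 2180 TPM in knockdown libraries. The list includes the factors themselves, HIF1A at -0.495 (edgeR adjusted p = 2.76e-06) and EPAS1 at -0.288 (edgeR adjusted p = 5.29e-05), each under the fold cutoff. Also on it were ARNT at -0.073 and VHL at 0.219, named after their values were seen and not called. VEGFA, at a log2 fold change of 0.46, was thus on the other side of 0 from the median of this list, and ADM, at -0.12, lay between.

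ADM2 is known to respond to ATF4, the main factor of the integrated stress response to shortage of amino acids and other strains. Of the 19 genes of that response, 18 were tested, 6 called higher and 1 lower, against 5.3% and 6.43% of all genes. Their median log2 fold change was 0.445. CHAC1, which breaks down glutathione, rose by 2.25 on the log2 scale (26.1 ± 2.92 to 124 ± 43.3), SESN2, a brake on growth signalling, by 1.00 (159.98 ± 15.4 to 321 ± 29.6) and PSAT1, an enzyme of serine synthesis, by 0.83 (4036 ± 107 to 7160.3 ± 444), with edgeR adjusted p-values up to 1.32e-05. ASNS, asparagine synthetase, had few reads, 15 over the control and 69 over the knockdown libraries. Its log2 fold change was 2.09 (SE 0.353, edgeR adjusted p = 0.000293). ASNS shares exon bases with a readthrough gene on its strand, and can be counted incompletely. ATF4 mRNA itself was at 0.16 (edgeR adjusted p = 0.014), under the fold cutoff. ADM2, at 1.60, lay above the median of the list and below CHAC1, with overlapping intervals (1.33 to 1.88 for ADM2 and 1.68 to 2.82 for CHAC1). The interval of ASNS, 1.33 to 2.85, held the value of ADM2, so these genes cannot be ranked.

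Markers of cell types moved as well. Of the 14 endothelial markers, 6 were tested and 1 was called, against 11.7% of all genes. It was CDH5, the cadherin of endothelial junctions, with 68.2, 63.1 and 59.1 normalized counts in control and 155, 190.3 and 177 in knockdown libraries (log2 fold change 1.45, SE 0.132, edgeR adjusted p = 1.40e-06). TIE1 and KDR, which are also known as endothelial genes, had changed in the other direction. Of the 10 pericyte and stromal markers, 9 were tested, 0 called higher and 2 lower, against 5.3% and 6.43% of all genes. The called genes were MCAM at -0.78 and CSPG4 at -0.72. The summed level was 1680 to 1980 TPM in control and 1600 to 1620 TPM in knockdown libraries. MCAM shares exon bases on its strand with a microRNA gene. All 9 epithelial markers were tested, 0 called higher and 4 lower, against 5.3% and 6.43% of all genes. The called genes were CDH1 at -2.02, KRT19 at -0.88, KRT8 at -0.63 and KRT7 at -0.59. The summed level was 6730 to 7180 TPM in control and 4350 to 4470 TPM in knockdown libraries. In the study's own follow-up, the fall of CDH1 was seen again by qRT-PCR and Western blot. The falls of KRT7 and KRT19 were not borne out there. The call of KRT8 was lost with library size alone (-0.56) and in the test against a fold change of 1.5. That of KRT7 held in 8 of 14 alternatives and was lost in that test, with library size alone (-0.53), with at least 10 counts in every library (-0.58), and without control replicate 1 (-0.55) or knockdown replicate 2 (-0.58) or 3 (-0.56). The part of these shifts in the levels of PGF, KDR, TIE1 and ADM2 was not tested.

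For each called member, the tested genes with the most similar course over the 6 libraries were found by the root mean square difference of centred log2 CPM. For PGF these were PTGIS, the prostacyclin synthase (difference 0.0634), and IL1R1, the interleukin-1 receptor (0.0674). For KDR they were DAPK1, a kinase (0.0174), and DNAJC16, a J-domain protein (0.0195). For TIE1 they were IGFBP4, which binds insulin-like growth factors (0.0639), and SORCS2, a sorting receptor (0.0683). For ADM2 they were ANKRD1, an ankyrin repeat protein (0.0963), and MICB, a ligand for natural killer cells (0.114). KDR was matched most closely and ADM2, whose knockdown libraries spread most, least closely. Because the difference is taken over both groups, genes with a like fold change score as similar. The log2 fold changes of DAPK1 and DNAJC16 were -0.649 and -0.642, beside -0.68 for KDR. Shared regulation was not tested.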

How the data were processed

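RNA-sequencing of 3 control and 3 knockdown libraries of 12Z cells was analysed. The authors aligned paired reads with STAR (2.7.6a in the submitters' processing notes) to GRCh38.p13 with GENCODE v36, kept reads mapping to a single place, and deposited raw counts per gene for each strand setting. Counts on the strand opposite to read 1 were used. Gene symbols, exon lengths and coordinates came from GENCODE v44 on the same build, matched for 60419 of 60660 identifiers. Genes were filtered with filterByExpr (minimum count 10), normalized by TMM (factors 0.968 to 0.984 in control and 1.02 to 1.03 in knockdown libraries) and compared with edgeR 4.0.16 under R 4.3.3. Its quasi-likelihood model held only the condition, and p-values were adjusted by the Benjamini-Hochberg method across the genes that passed the filter. TPM were computed from the counts. The study itself used DESeq2, here an alternative (1.42.0).

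The members and lists were chosen with earlier results of these data known. The text names all members, LINC01133, the receptors of the member ligands, from each other list the called genes with the largest changes (at most 4, or the 2 most abundant where none was called), and for each called member the 2 genes of most similar course. A gene named by this rule is not reported here. Alternatives were DESeq2, its size factors within edgeR, library size alone, no filter, at least 10 counts in every library, unstranded counts, a replicate block, a test against a fold change of 1.5, no cutoff on fold change, and fits that left out 1 library each. The test was checked on simulated counts, where edgeR recovered 198 of 200 changed genes with 1 false call. That simulation gave all genes the same dispersion, set every change well over the fold cutoff and held no outlying library. It cannot say how the test does for genes near the cutoff or with more spread. Precision is given by the SD over 3 libraries and the SE of the fit. Proteins and secretion were not measured in these files.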

Additional observations from a re-analysis of the deposited data

How the results depend on the processing

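Over all genes 1778 were called. The count was 578 in the test against a fold change of 1.5 and 7315 with no cutoff on fold change, and 1641 to 1815 with a library left out. Of the members, 4 were called in each leave-out, 3 in the test against 1.5 (KDR lost), 5 with no filter (FLT1 gained) and 7 with no cutoff (VEGFA, VEGFC and ADM gained). Over all genes, 578 of 15155 were called in the test against 1.5, 1963 of 29200 with no filter and 7315 of 15155 with no cutoff. Library size alone shifted the median log2 fold change of all genes to 0.07 and the share of higher calls from 45.2% to 55.9%. VEGFB turned from -0.02 to 0.0394 there and to 0.0217 and 0.0007242 without control replicates 1 and 3 (-0.0875 to 0.0217 with a library left out). ITGA5 turned to 0.0558 with library size alone and to 0.0307, 0.00839 and 0.0134 without control replicate 2, knockdown replicate 1 and knockdown replicate 3 (-0.0466 to 0.0307). Of 134 alternative values for single members and 479 for 32 other named genes, 127 and 440 kept their direction and stayed called or not called. In 1 and 35 the call was lost. A gene that was not called kept that status even where its adjusted p crossed 0.05, as that of ADM did. The test against 1.5 also ended the calls of NRP2, PDGFD, CALCRL, RAMP1, RAMP2, ADM5 and CSPG4. LINC01133 stayed between -2.65 and -2.57. The causes were not tested.

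The labels do not say whether replicate numbers pair the samples. The correlations of deviations between same-numbered libraries were -0.02, 0.005 and 0.06. With 3 libraries per group, these values cannot settle whether the samples were paired. With the replicate number as a block, 1747 genes and 4 members were called, with RAMP2 lost at -0.58 and the adjusted p of ADM at 0.0518 (edgeR).

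FLT1, ANGPT1, FLT4 and TEK were limited by depth, with at most 20 reads per library.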
